A study of Rattus norvegicus with 12 samples.

Results

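The collagens and the matrix proteins that surround them were examined in neuron-enriched cultures of rat cerebellum. Every gene probe of the array whose gene name was that of a collagen chain, of decorin (Dcn), lumican (Lum), osteoglycin (Ogn), fibromodulin (Fmod), fibronectin (Fn1), a laminin chain, a fibulin, fibrillin 1 or 2 (Fbn1, Fbn2), Sparc, periostin (Postn) or a lysyl oxidase was taken, without regard to its signal. This gave 99 probes of 73 genes, out of 30367 gene probes. The arrays carried 2 releases of the gene names, and 88 of the 99 probes bore such a name in both. Col4a3bp (a ceramide transporter) and Loxhd1 (a stereocilia protein) entered only through the spelling of their symbols. Each had 1 tested probe, which is included in the counts over all members below, and their differences are given apart.

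Cultures were made from the cerebella of Sprague-Dawley rats that were 1 day old, and RNA was taken at 16 days in vitro (DIV). The 6 control cultures received the solvent dimethyl sulfoxide at 0.001%. The 6 cultures exposed to acetamiprid (ACE), a neonicotinoid insecticide that acts on nicotinic acetylcholine receptors, received 1 µM ACE in the same solvent from day 2 on. All cultures were fed 1% fetal bovine serum for the first 8 days and a serum-free medium afterwards, and grew on wells coated with poly-L-lysine and laminin. Per the study's methods, the cells of each of 6 independent experiments came from pooled neonates of a single litter, so that control and ACE arrays with the same number form a pair and each number stands for a culture. The cultures hold neurons together with astrocytes, other glia and further cells. In such bulk RNA, fewer cells of a type and less RNA per cell cannot be told apart.

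Collagens are trimers whose chains repeat glycine at regular steps, which lets them wind into a triple helix. Fibrillar collagens (types I, II, III, V and XI) form the fibrils of connective tissue, whereas type IV collagen and the laminins form the sheets of the basement membrane. In the brain, fibrillar collagen and small leucine-rich proteoglycans are mostly products of the fibroblasts of the meninges and of large vessels. Basement membranes lie under the meninges and around the vessels, where astrocytes, endothelium and mural cells contribute to them. Fibroblasts from the meninges are a known companion of dissociated cerebellar cells.

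The probes are 60 bases long, and some of them read the repeat itself. Only 2 of the 60 collagen probes held at least 6 codons of the form GGN, the codons for glycine, each 9 bases after the last, and 11 of all 30367 probes (0.0362%) did. These 2 are shown because they make the repeat visible. GGN codons are in capitals. The Col4a1 probe lies on rn4 at chr16:83146135-83146194, plus strand, and the Col4a6 probe at chrX:37482127-37482186, plus strand. The Dcn probe is shown because its 60 bases span 3802 bases of the genome (chr7:35037331-35041132, plus strand), so that it joins stretches on either side of an intron and matches the spliced message.
Col4a1 probe: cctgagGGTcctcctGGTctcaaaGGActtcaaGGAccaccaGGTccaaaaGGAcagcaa
Col4a6 probe: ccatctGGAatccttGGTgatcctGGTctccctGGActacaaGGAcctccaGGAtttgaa
Dcn probe: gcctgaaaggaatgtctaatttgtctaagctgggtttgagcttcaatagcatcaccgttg

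Promoter sequence from RefSeq (GRCr8) was at hand for 56 of the 73 genes, in 61 windows that reach 250 bases before the annotated start. The letters TATAAA stood on either strand in 7 of the 61 windows (11.5%) against 12.9% of all 33469 windows of that length. CCAAT stood in 14 (23.0%, against 34.0%), and GGGCGG in 29 (47.5%, against 30.5%). No motif overlapped another in the stretches printed. A match describes these letters and is not a binding site. The first 110 bases of the Col1a2 window (chr4:33518307-33518416, plus strand) is shown because Col1a2, the second chain of type I collagen, is the fibrillar member with both a CCAAT (as ATTGG on this strand) and a TATAAA in its window. The starts of Col4a1 and Col4a2, which code for the chains of the common type IV collagen, lie head to head with 76 bases between them. That whole stretch (chr16:84885521-84885596, plus strand of Col4a1) is shown because both genes are measured below, and it holds a single GGGCGG (as CCGCCC on this strand). Motifs are in capitals.
Col1a2 promoter: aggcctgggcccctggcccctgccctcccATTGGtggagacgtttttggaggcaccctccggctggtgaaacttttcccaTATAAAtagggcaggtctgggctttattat
Col4a1 promoter: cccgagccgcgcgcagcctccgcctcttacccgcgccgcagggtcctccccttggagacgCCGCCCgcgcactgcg

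Signal is given as log2 of the processed intensity after quantile normalisation between the 12 arrays. A level belongs to its probe only, and no difference between genes is read from it. The signal was well above background on all 12 arrays for 68 of the 99 matrix probes, on none for 6 and on some arrays for 25. After a filter on low signal, 75 probes of 60 genes were tested together with all other probes, 23796 in all. The 13 genes without a tested probe included Col4a3, Col6a3, Col10a1, Col13a1, Col17a1, Col24a1, Col25a1, Lama1 and Loxl4. Brightness differed between arrays, with a 75th percentile of 1803 to 4384 intensity units and 75.4% to 91.0% of spots well above background. Since all controls sat at slide position 1 and all ACE samples at position 3, effects of position and of exposure cannot be told apart.

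No matrix probe passed the threshold in control versus ACE (CvA). With limma and the pairs as a block, 0 of the 75 probes had an adjusted p under 0.05 (0% of all 23796 probes), and the lowest adjusted p among the matrix probes was 0.143. At an unadjusted limma p under 0.05, 8 matrix probes (10.7%) were counted against 16.6% of all probes. Of these 8, 3 were higher in ACE (6.9% of all probes) and 5 were lower (9.73% of all probes). The exact signed-rank test over the 6 pairs gave an unadjusted p under 0.05 for 3 matrix probes (4%, against 11.6% of all probes). No matrix probe differed by as much as 1.5-fold, which 1.72% of all probes did. Over the 75 probes the log2 difference, ACE minus control, ranged from -0.28 to 0.53 with a median of -0.008, the median over all probes being -0.005. The ACE mean was above the control mean for 34 probes and below it for 41. Leaving out pair 2, 4 or 5 moved the count of 8 to 4, 5 and 5, respectively (11.8%, 14% and 12.9% of all probes), and leaving out pair 3 moved it to 12 (17.5% of all probes).

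Among the fibrillar collagens, 15 probes of 10 genes were tested, of which 4 were higher in ACE and 11 lower. An unadjusted limma p under 0.05 was found for 1 of the 15, against 16.6% of all probes. Col1a1, the main chain of type I collagen, had a control signal of 12.68 at the lowest, 12.92 at the median and 14.09 at the highest, and an ACE signal of 12.29, 13.19 and 14.15. The groups overlapped almost entirely. The paired difference was 0.10 ± 0.13 (SE, 6 pairs), with an adjusted limma p of 0.715. A second Col1a1 probe gave -0.08, but 0.02 without pair 6. Col1a2 ranged from 15.61 to 16.38 in control (median 15.84) and from 15.68 to 16.41 in ACE (median 15.91), a difference of 0.04 ± 0.07 (adjusted p of 0.802). Type III collagen (Col3a1), which shares its fibrils with type I, ranged from 11.57 to 12.93 in control (median 12.04) and from 11.34 to 13.23 in ACE (median 12.05). Its difference was -0.003 ± 0.13, with 3 pairs in each direction.

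Col5a1, a chain of the type V collagen on which type I fibrils assemble, had the lowest log2 difference of the tested matrix probes. It ranged from 8.92 to 10.14 in control (median 9.29) and from 8.50 to 9.77 in ACE (median 8.91). ACE was lower in 5 of 6 pairs, but the groups overlapped, and the difference of -0.28 ± 0.11 had an adjusted p of 0.277. Col5a2, its partner chain, differed by -0.08 ± 0.06, and the cartilage-type chains Col11a1 and Col11a2 by -0.08 ± 0.06 and -0.11 ± 0.06. Col2a1, the collagen of cartilage, was dim and uneven. Its control arrays ranged from 5.05 to 8.67 (median 5.80) and its ACE arrays from 5.05 to 8.32 (median 6.49). The difference of 0.39 ± 0.33 was carried by pair 6 (5.26 in control, 7.42 in ACE), and without that pair it was 0.04.

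Basement membrane collagens gave 9 tested probes of 7 genes, 5 higher and 4 lower in ACE. Col15a1, a collagen between basement membranes and the fibrils beneath them, was the only matrix probe that was well above background on all arrays and higher in ACE in 6 of 6 pairs. It ranged from 9.21 to 10.79 in control (median 9.89) and from 9.48 to 10.95 in ACE (median 10.18), so that the groups overlapped while each pair moved the same way. The pair differences were 0.27, 0.25, 0.16, 0.15, 0.51 and 0.37, and their mean was 0.28 ± 0.05. The adjusted limma p was 0.143, and the exact signed-rank p was 0.0312, the smallest that 6 pairs can give. Its close relative Col18a1, the source of endostatin, differed by 0.08 ± 0.08, with 4 pairs higher, and by 0.003 without pair 3.

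Col4a1 and Col4a2, which share the promoter stretch printed above, lay on opposite sides of 0. Col4a1 ranged from 11.00 to 11.93 in control (median 11.58) and from 11.32 to 11.86 in ACE (median 11.58), a difference of 0.12 ± 0.11 that was 0.01 without pair 4. Col4a2 ranged from 7.59 to 8.45 in control (median 7.88) and from 7.40 to 8.32 in ACE (median 7.78), a difference of -0.15 ± 0.10. Neither passed the threshold (adjusted p of 0.619 and 0.483). The Col4a1 probe with the glycine repeat lay between 5.65 and 6.85 on all arrays, and its difference of -0.24 had the opposite sign. The Col4a6 probe with the repeat differed by 0.14, which pair 2 carried (1.57, with the other 5 pairs lower in ACE), and without that pair it was -0.15. The other Col4a6 probe differed by -0.01. In all, 13 genes had more than 1 tested probe, and in 5 of them (Col1a1, Col5a2, Col4a1, Col4a6 and Col9a1) the probes differed in sign. Without each single pair in turn this held throughout for 2 of the 5, Col4a1 and Col9a1.

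The other collagens were as uneven. Col6a1 and Col6a2, chains of the beaded filaments that link cells to the matrix, differed by 0.03 ± 0.08 and -0.05 ± 0.05. Their partner Col6a3 was well above background on 3 of 12 arrays and was not tested. Its control arrays ranged from 1.40 to 5.24 and its ACE arrays from 1.66 to 7.41. The highest log2 difference of the tested matrix probes belonged to Col7a1, the collagen of anchoring fibrils, at 0.53 ± 0.26. It was carried by pairs 3 and 5 (1.28 and 1.53), the other pairs lying between -0.14 and 0.43, and without pair 5 it was 0.33. Its control arrays ranged from 6.54 to 7.84 and its ACE arrays from 6.90 to 8.82, and the unadjusted limma p was 0.081. The network collagen Col8a1 differed by -0.03 ± 0.10.

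Collagens that decorate fibrils gave 13 tested probes of 9 genes, 4 of them with an unadjusted p under 0.05 (16.6% of all probes), and 2 of these 4 were Col9a1 probes of opposite sign. Col19a1 was the only matrix probe that was well above background on all arrays and lower in ACE in 6 of 6 pairs. It ranged from 7.76 to 9.19 in control (median 8.04) and from 7.62 to 9.14 in ACE (median 7.68). The groups overlapped, and culture 1 was the highest in both. The difference of -0.22 ± 0.05 had an adjusted limma p of 0.172 and an exact signed-rank p of 0.0312. Col14a1, which binds fibrils of type I collagen, differed by -0.20 ± 0.08 at the probe with the wider spread between cultures and by -0.06 ± 0.07 at its other probe (adjusted p of 0.264 and 0.704). For Col9a1, a chain of the type IX collagen of cartilage, a probe that was well above background on 11 arrays was higher in 6 of 6 pairs (0.46 ± 0.11, adjusted p of 0.164), while another was lower in 5 of 6 pairs (-0.19 ± 0.08, adjusted p of 0.296). These 2 probes lie on rn4 at chr9:22990092-22990153 and chr9:22940151-22940982. The remaining tested probe, at chr9:22989975-22990034, was well above background on all 12 arrays and differed by 0.02 ± 0.05, with 3 pairs in each direction. The 3 probes do not give the gene a direction.

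The small leucine-rich proteoglycans bind collagen fibrils and set their width. Dcn ranged from 4.19 to 7.81 in control (median 5.52) and from 4.91 to 7.45 in ACE (median 5.63). Lum ranged from 3.01 to 6.18 in control (median 4.85) and from 3.98 to 5.95 in ACE (median 4.42). Both were well above background on 10 of 12 arrays, and their differences of 0.18 ± 0.18 and -0.01 ± 0.28 were no larger than their errors. Ogn, also a product of the meninges, ranged from 10.62 to 11.60 in control (median 11.25) and from 9.83 to 11.44 in ACE (median 11.11). It was lower in ACE in 5 of 6 pairs, with a mean difference of -0.27 ± 0.13 (adjusted p of 0.345) that was -0.17 without pair 6. Fmod differed by -0.07 ± 0.11.

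No glycoprotein or laminin passed the threshold either. Fn1, the adhesive protein that cells lay down before collagen, ranged from 14.45 to 15.07 in control (median 14.72) and from 14.23 to 15.20 in ACE (median 14.76), a difference of 0.05 ± 0.06. Its other probe differed by 0.19 ± 0.12, and by 0.09 without pair 4. Sparc, a collagen-binding protein made by many cells including astrocytes, ranged from 16.84 to 17.17 in control (median 17.06) and from 16.88 to 17.03 in ACE (median 16.94), a difference of -0.07 ± 0.05. Postn, a matricellular protein of fibroblasts, was dim and differed by -0.03 ± 0.26. Control and ACE arrays overlapped for all 3 probes. Laminins gave 9 tested probes of 8 genes, 6 higher and 3 lower. The alpha chains Lama2 and Lama4 differed by 0.01 ± 0.05 and 0.02 ± 0.05, the beta chains Lamb1 and Lamb2 by 0.09 ± 0.09 and -0.20 ± 0.08, and the gamma chain Lamc1 by 0.05 ± 0.04. The other Lamc1 probe (0.12 ± 0.05, adjusted p of 0.276) and Lamb2 were the laminin probes with an unadjusted limma p under 0.05. This made 2 of 9, against 16.6% of all probes. Lama1, the alpha chain of the embryonic and pial basement membrane, was well above background on 6 of 12 arrays and was not tested.

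Fibulins and fibrillins, which build microfibrils and elastic fibres, gave 6 probes with differences between -0.10 and 0.03. Fbln1 differed by 0.03 ± 0.07, Fbln2 by -0.05 ± 0.15, Fbln5 by -0.06 ± 0.09, Fbn1 by -0.002 ± 0.08 and Fbn2 by -0.01 ± 0.11. Of the lysyl oxidases, the enzymes that cross-link collagen and elastin, Lox was lower in ACE in 5 of 6 pairs (-0.12 ± 0.10, adjusted p of 0.582) and Loxl1 in 4 of 6 pairs (-0.09 ± 0.06, adjusted p of 0.446). The Lox difference was -0.04 without pair 6 and -0.20 without pair 4. Of the 2 genes that code for no matrix protein, Col4a3bp differed by 0.08 and Loxhd1 by 0.51. The Loxhd1 probe was well above background on 8 of 12 arrays. Its difference was carried by pairs 5 and 6 (1.74 and 1.02), and without pair 5 it was 0.27. None of these probes passed the threshold.

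**Figure D1:**
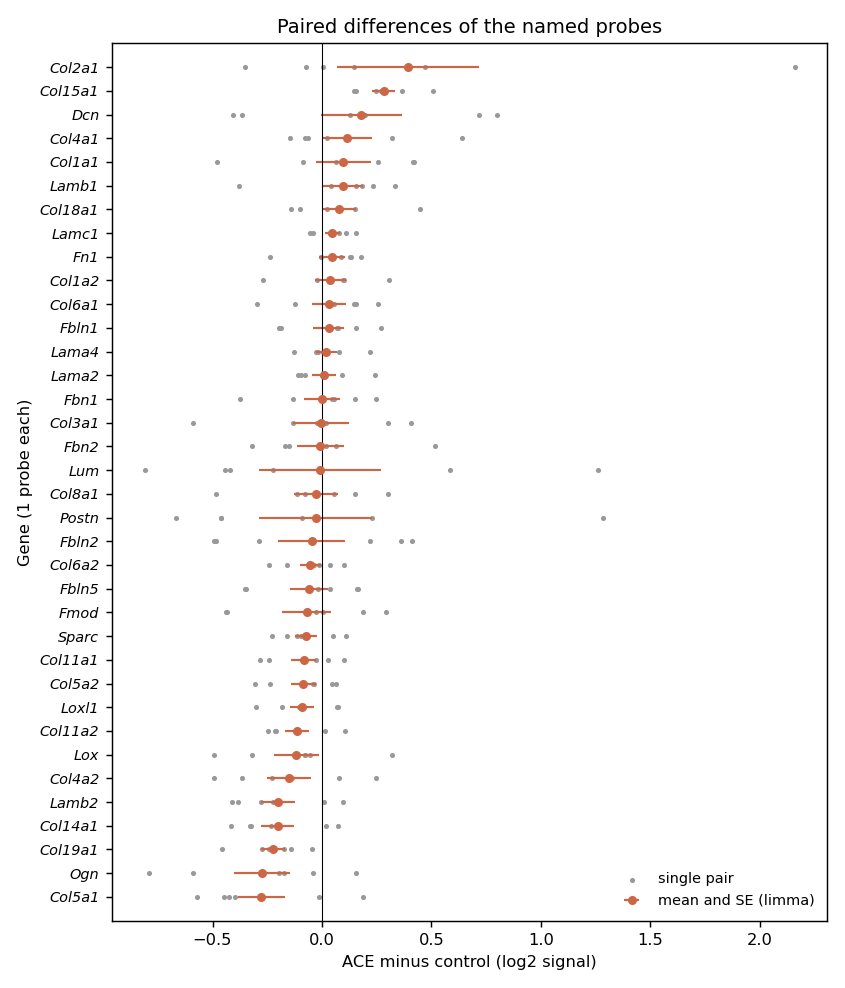
Difference in log2 signal, ACE minus control, for the named probes (y axis, 1 probe per gene, ordered by mean). Grey points are the 6 pairs, orange points the means and bars the SE of the limma fit. The single pairs lie on both sides of 0 for all genes except Col15a1 and Col19a1, and the pairs of Col2a1, Lum and Postn are the most scattered.

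The pairs did not share a direction, and within a pair the matrix probes tended to move together. In pairs 1, 3 and 4, most of the 75 probes were higher in ACE: 53 in pair 1 (median difference 0.09), 51 in pair 3 (0.05) and 54 in pair 4 (0.09). In the other pairs most were lower in ACE, namely 47 in pair 2 (-0.05), 53 in pair 5 (-0.11) and 60 in pair 6 (-0.20). Pair 6 thus had 80% of the matrix probes lower in ACE against 51.4% of all probes tested, and pair 4 had 72% higher against 46.1%. The median over all probes lay between -0.0145 and 0.00688 in each pair. The genes of 1 culture share their RNA and their array, so that these counts describe the pairs and carry no test.

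The shift of pair 6 reached members of most roles. Of the tested probes, 13 of 15 fibrillar collagen probes, 8 of 9 basement membrane collagen probes, 8 of 13 fibril-associated collagen probes, 3 of 4 proteoglycan probes, 3 of 4 glycoprotein probes, 7 of 9 laminin probes, 5 of 6 fibulin and fibrillin probes and 4 of 4 lysyl oxidase probes were lower in ACE. The difference in pair 6 was -0.79 for Ogn, -0.59 for Col3a1, -0.50 for Fbln2, -0.49 for Lox and for Col8a1, and -0.48 for Col1a1, while it was 2.16 for Col2a1, 0.99 for Lama3 and 0.43 for Col7a1. In pair 4 the probes higher in ACE were 7 of 15 fibrillar collagen probes (median of -0.004), 7 of 9 basement membrane collagen probes, 10 of 13 fibril-associated collagen probes, 4 of 4 proteoglycan probes, 4 of 4 glycoprotein probes, 6 of 9 laminin probes, 5 of 6 fibulin and fibrillin probes, and 3 of 4 lysyl oxidase probes. The difference in pair 4 was 0.64 for Col4a1, 0.42 for Col1a1, 0.41 for Col3a1 and 0.30 for Col1a2, while it was -0.57 for Col5a1. The SD of the pair differences had a median of 0.21 over the matrix probes against 0.12 over all probes tested. Pairs 4 to 6 formed a single scan batch per the file headers, and it held the pairs with the highest and the lowest median.

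**Figure D2:**
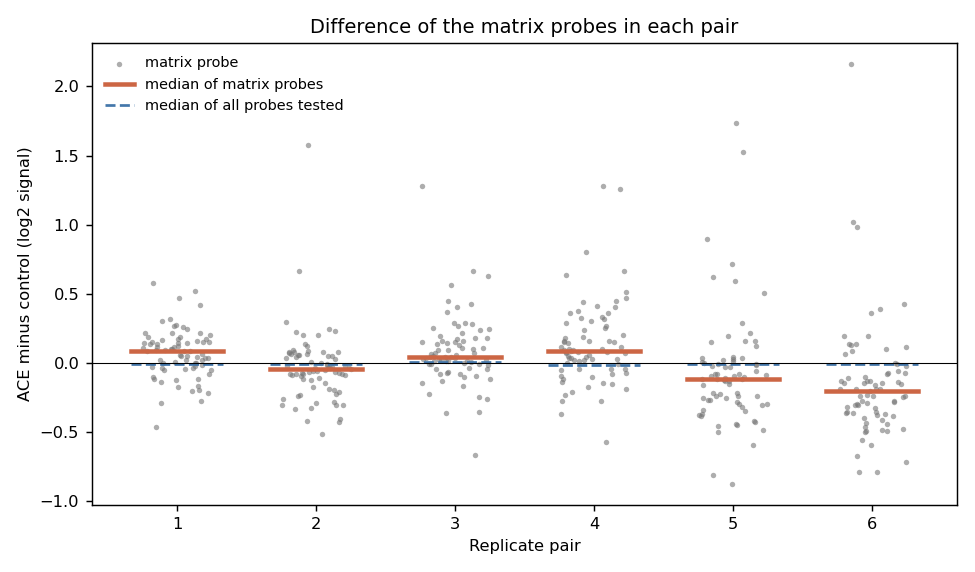
Difference in log2 signal, ACE minus control, of the 75 tested matrix probes (grey points) in each of the 6 replicate pairs. Orange bars are the medians of the matrix probes and dashed blue bars those of all 23796 probes. The orange bars lie above 0 in pairs 1, 3 and 4 and below it in pairs 2, 5 and 6, lowest in pair 6 at -0.20, while the blue bars stay near 0.

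Differences between the 6 cultures were larger than those between the groups. By the moderated F test of limma over the cultures, 64 of the 75 matrix probes (85.3%) had an adjusted p under 0.05, a share close to the 83.9% of all probes. Each culture had a slide of its own, so that culture and slide cannot be told apart. Cultures 1, 2 and 3 also each had a scan batch of their own, while cultures 4 to 6 shared another. Only culture 1 was read with the older version of the extraction software. For these cultures, scan batch and software version cannot be told apart from the culture either. The SD between culture means had a median of 0.37 on the log2 scale for the matrix probes and 0.29 for all probes. The highest culture mean was at least 2-fold above the lowest for 37 matrix probes (49.3%), against 36.1% of all probes. Sparc was among the 11 probes that did not pass the F test (adjusted p of 0.201), with 1.15-fold between its highest and lowest culture mean.

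Culture 2 was the highest for 35 of the 75 matrix probes (46.7%), against 14.8% of all probes. Its matrix probes lay above their mean over the 6 cultures by a median of 0.30, and 60 of the 75 were above it. The corresponding medians were 0.04 in culture 1, -0.09 in culture 3, -0.12 in culture 4, -0.07 in culture 5 and -0.10 in culture 6, and over all probes they lay between -0.03 and 0.04. Both arrays of culture 2 took part. Col1a1 was at 14.09 in control and 14.15 in ACE of culture 2, above the 12.29 to 13.75 of all other arrays, and its culture means spanned 3.01-fold. Col3a1 was at 12.93 and 13.23, above the others at 11.34 to 12.55, with a span of 2.80-fold. Col1a2 was at 16.38 and 16.41 and Fn1 at 15.07 and 15.20, with spans of 1.67-fold and 1.73-fold. These 4 genes encode main fibroblast matrix proteins, and at each of these probes both culture 2 arrays were above all 10 others. The other Fn1 probe was highest in culture 4 instead, with culture means of 8.43 there and 8.25 in culture 2. Of the small leucine-rich proteoglycans, Fmod was highest in culture 2, Dcn and Lum in culture 3 and Ogn in culture 1.

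By role, culture 2 was the highest for 9 of 15 fibrillar and 5 of 9 basement membrane collagen probes. It was also the highest for 4 of 9 laminin probes and 5 of 6 fibulin and fibrillin probes. The counts were 4 of 13 for fibril-associated, 2 of 3 for beaded filament and anchoring, and 2 of 2 for network collagens. They were 2 of 4 for glycoproteins, 1 of 4 for proteoglycans and 1 of 4 for lysyl oxidases. For transmembrane collagens, collagen XXVI and the genes that code for no matrix protein, 0 of 2 probes each were highest there. In Col18a1 (12.01 and 12.10) and Lamc1 (13.29 and 13.37), culture 2 stood clear of the other 5 cultures, which lay between 10.88 and 11.35 and between 12.65 and 12.87. The other Lamc1 probe went another way, with a mean of 8.16 in culture 2 and its highest mean, 8.46, in culture 1. Other members were highest elsewhere. Culture 1 was the highest for Col11a2, Col19a1, Col4a2, Lamb2, Lox, Loxl1 and Ogn. Col19a1, for example, was at 9.19 in control and 9.14 in ACE of culture 1 and between 7.62 and 8.44 on the other arrays.

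Culture 3 differed in another set. Dcn was at 7.81 and 7.45 in culture 3 and between 4.19 and 6.22 on the other arrays, Lum at 6.18 and 5.95 against 3.01 to 5.56, and Col2a1 at 8.67 and 8.32 against 5.05 to 7.42. The culture means of Col2a1, which was well above background on all 12 arrays, spanned 10.9-fold. No span is given for Dcn and Lum, which were well above background on 10 arrays. Each of the 3 passed the F test (adjusted p of 0.0013 for Dcn, 0.018 for Lum and 0.011 for Col2a1). Col15a1 was also highest in culture 3. The same culture was the lowest for other members, among them Col8a1, Fbln5, Col14a1, Col18a1 and Lama4. Col8a1 was at 9.87 and 10.02 in culture 3 and between 10.54 and 11.79 on the other arrays.

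**Figure D3:**
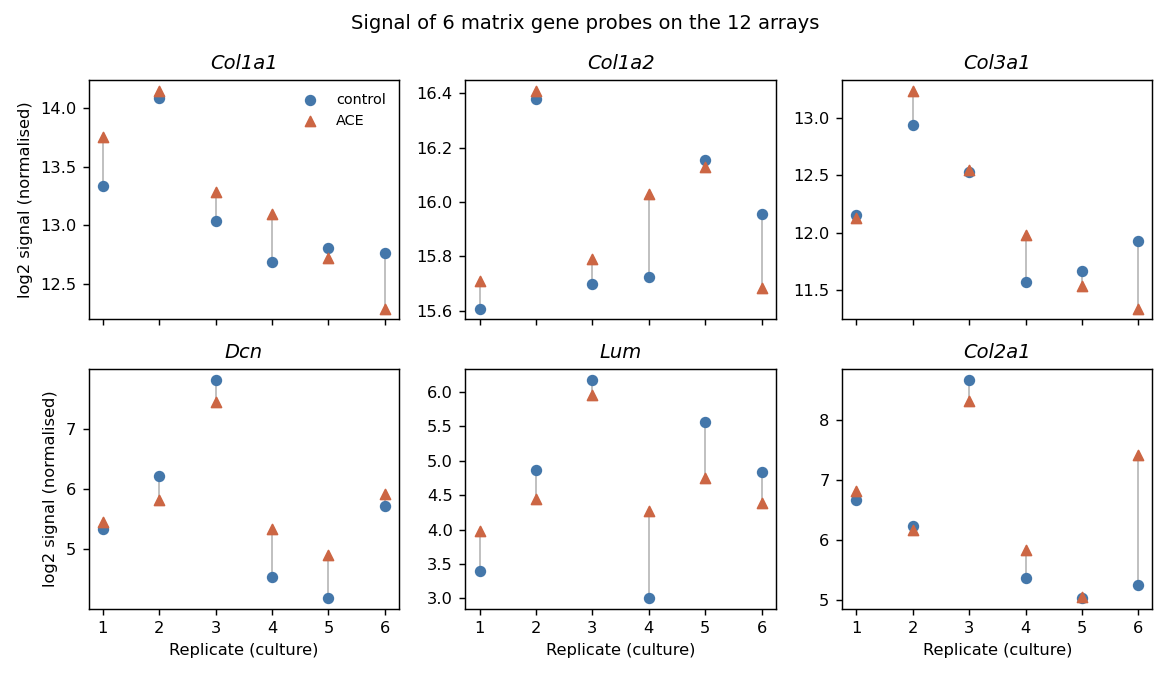
Normalised log2 signal of 6 matrix gene probes (y axis, own scale in each panel) in the 6 cultures (x axis), with control as blue circles, ACE as orange triangles and a grey line joining each pair. Both arrays of culture 2 are the highest for Col1a1, Col1a2 and Col3a1, and both arrays of culture 3 the highest for Dcn, Lum and Col2a1.

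**Figure D4:**
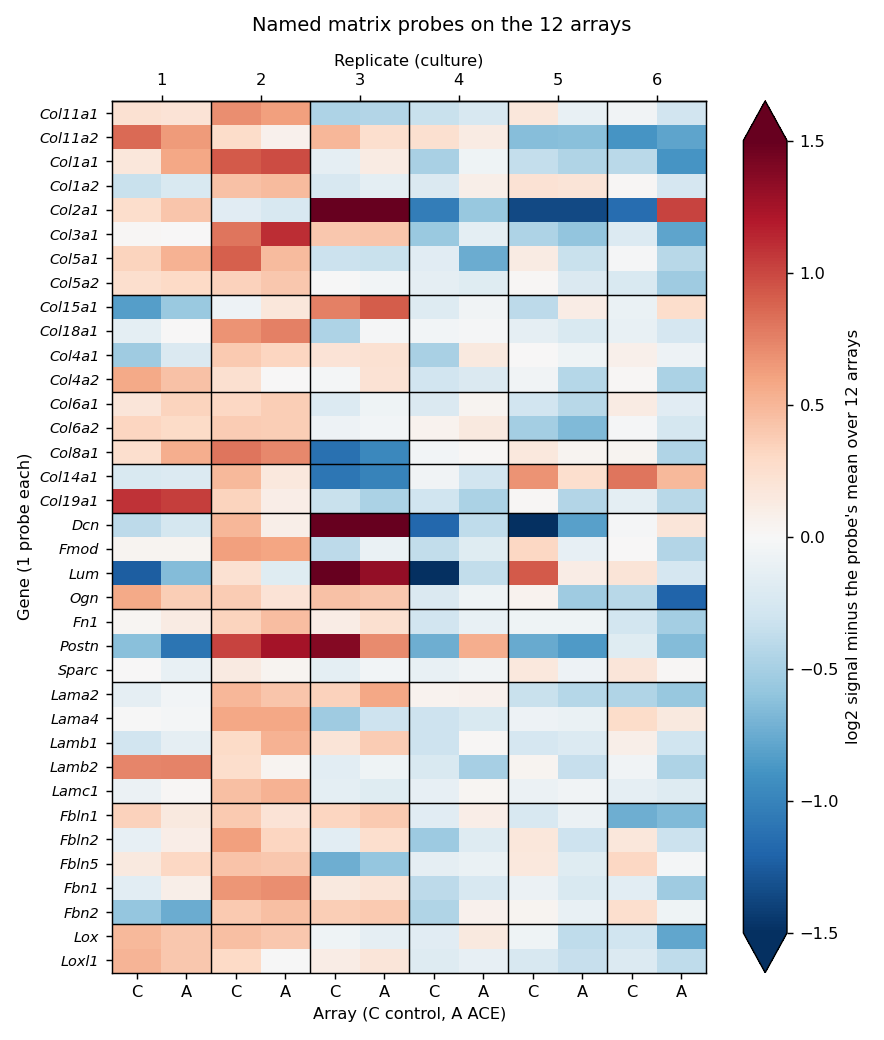
Deviation of the log2 signal of each named probe (rows, grouped by role) from its mean over the 12 arrays, with control (C) and ACE (A) side by side in each culture and colours ending at 1.5 in either direction. The 2 columns of a culture mostly carry the same colour, with culture 2 mostly red and culture 3 split between dark red (Col2a1, Dcn, Lum) and blue (Col8a1, Fbln5).

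The rest of the collagen pathway was read from lists that hold no members. Of 23 tested genes of collagen synthesis and processing, which hydroxylate, fold, cleave and carry procollagen, 0 passed the adjusted threshold, and 1 was higher and 1 lower in ACE at an unadjusted limma p under 0.05. Of all probes, 6.9% were higher and 9.73% lower at that threshold. The higher gene was P4ha3, a prolyl hydroxylase subunit, at 0.24 ± 0.04 in 6 of 6 pairs (adjusted p of 0.143), and the lower was Tll1, a procollagen protease, at -0.11 ± 0.05. The list was highest in culture 2 for 12 of 23 genes, among them Serpinh1 (the collagen chaperone), Pcolce, Plod2 and P4ha1, and its median in that culture was 0.19 above the mean of the 6 cultures. Of 17 matrix proteases and inhibitors, 1 was higher at an unadjusted p under 0.05, namely Ctsk, a collagen-degrading protease, at 0.20 ± 0.04. Of 20 tested matrix receptors, 1 was higher (the integrin Itga8, 0.14 ± 0.05), and of 19 other matrix genes, 1 was lower (Prelp, -0.15 ± 0.06). The other matrix genes had a median of 0.23 in culture 2 and a median pair difference of -0.21 in pair 6, while the receptors gave 0.14 and -0.01. The proteases and inhibitors had 0.19 in culture 2 and -0.04 in pair 6, and the synthesis list had -0.07 in pair 6.

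Markers of cell types that could supply matrix were read in the same way. Of 15 markers of meningeal and perivascular fibroblasts that are no members, 14 were tested and 11 were well above background on all 12 arrays, including Foxc1, Ptgds, Igf2, Crabp2, Prrx1 and Slc22a6. The exceptions were Foxc2 (11 arrays), Tbx18 (9 arrays) and Slc6a13 (6 arrays). Bgn and Mgp are also counted among the other matrix genes above. No marker stayed below background on all arrays, and none differed between the groups at an unadjusted limma p under 0.05. The mean of the list ranged from 8.73 to 9.41 in control and from 8.74 to 9.51 in ACE. Its median deviation was 0.05, 0.30, 0.09, -0.08, -0.24 and -0.12 in cultures 1 to 6, and the highest of these medians was that of culture 2. Of the 14 markers, however, 4 had their highest mean in culture 2 and 6 in culture 3 (Mgp, Ptgds, Slc6a13, Aldh1a2, Tbx18 and Foxc2). The median pair differences of the list in pairs 1 to 6 were -0.11, -0.05, 0.04, 0.20, -0.01 and -0.22, where those of the matrix probes were 0.09, -0.05, 0.05, 0.09, -0.11 and -0.20. The signs were opposite in pair 1. The part of such cells in the matrix values was not tested.

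In pair 6 the neuron markers had a median pair difference of -0.27 and the skeletal muscle markers one of -1.8, both lower than that of the fibroblast markers. The 6 mural cell markers had -0.21 in pair 6 and their highest median deviation, 0.32, in culture 1. The astrocyte markers also had theirs, 0.43, in culture 1. Neither list was highest in culture 2. The endothelial list was, with a median deviation of 0.14 over 6 tested genes. Skeletal muscle markers stood at 1.28 in culture 2, choroid plexus markers at -0.42 and oligodendrocyte markers at -0.38. In culture 3, where Dcn, Lum and Col2a1 were highest, the choroid plexus marker Ttr had a culture mean of 14.72, above the means of the other cultures, but Ttr did not pass the F test over cultures (adjusted p of 0.175), and its pair differences ran from -4.89 to 3.06. Tbx18 had a mean of 7.46 there against 4.56 to 6.07 (adjusted p of 0.011). The choroid plexus markers did not move together, since Kcne2 was also highest in culture 3, Folr1 in culture 1 and Clic6 in culture 4, and the list had medians of 0.58 in culture 3 and 0.54 in culture 4. Of the 5 tested cartilage markers, Lect1 and Comp were highest in culture 3 (9.49 and 6.95), Ucma and Chad in culture 1 and Acan in culture 5, whereas Matn1, Matn3, Epyc and Cytl1 were well above background on 2 or 3 of the 12 arrays. Skeletal muscle markers had the widest range of these lists, with a median of 2.76 in culture 1 and a median pair difference of -4.42 in pair 2. At an unadjusted limma p under 0.05, 1 of 6 endothelial, 1 of 4 choroid plexus and 1 of 8 skeletal muscle markers were lower in ACE. Of 6 neuron markers, 1 was higher, and of 6 microglia markers, 1 was higher and 1 lower. The mural, astrocyte, cartilage and oligodendrocyte lists held 0. Of all probes, 6.9% were higher and 9.73% lower. Whether any of these cells bear on the matrix values was not tested.

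**Figure D5:**
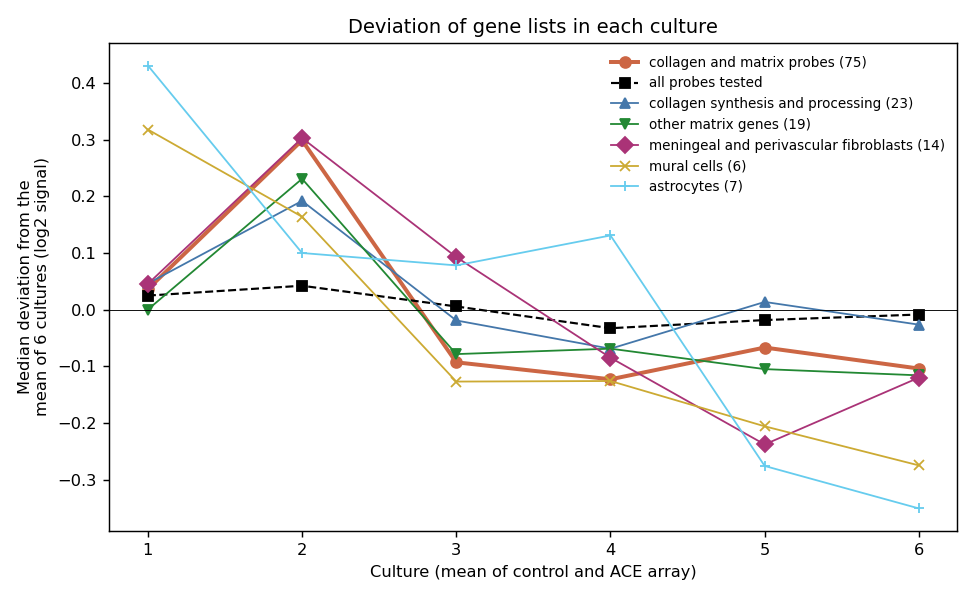
Median deviation of gene lists from the mean of the 6 cultures (y axis, log2 signal), with the mean of the control and ACE array of each culture on the x axis and the number of tested genes or probes in the key. The medians of the matrix probes (thick orange) and of the fibroblast markers (purple) both peak in culture 2 at 0.30. Collagen synthesis and other matrix genes peak there too, at 0.19 and 0.23, and all probes tested (black, dashed) stand at 0.04. Astrocyte and mural markers peak in culture 1.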

How the data were processed

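RNA of 12 cultures was hybridised to 1-colour (Cy3) Agilent arrays. The authors read each spot's intensity with Agilent Feature Extraction, which subtracts background and removes spatial trends. Per the file headers, 10 arrays were read with version 11.5.1.1, and both arrays of replicate 1 with 11.0.1.1. The authors also deposited log2 values, quantile normalised and centred on each probe, which correlated at 0.998 to 0.999 per array with those computed here (column medians -0.02 to 0.02) and served as an alternative.

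Outlier spots were set to missing (4054 spot values), the log2 processed intensity was quantile normalised, and spots of a probe were averaged. Probes above the 20th percentile of their array on at least 7 of 12 arrays with at least 4 complete pairs were tested (23796). The arrays of replicate 3 used a newer release of gene names, and a probe was a member if either release named it so (90 by the older, 97 by the newer, 99 in all). By accession, 63 members were matched to RefSeq.

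CvA was tested with limma 3.58.1 (R 4.3.3, data.table version 1.17.8) with the replicate number as a block, two-sided, with Benjamini-Hochberg adjustment over all probes at 0.05, and with the exact signed-rank test per probe. Cultures were compared by the moderated F of the same fit. Scripts were tested on simulated data. The pairing comes from the study's litters. Deviations of same-numbered control and ACE arrays correlated at 0.449 to 0.912, those of others at -0.439 to 0.390.

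Named genes were a list of 33 matrix genes, probes with the same sign in 6 of 6 pairs and the 5 with the widest spread between cultures, both well above background on 12 arrays. A listed gene's probe was the one well above background on the most arrays, then the brightest, while the other rules chose probes. Col7a1, Lama3, the 3 Col9a1 probes and the single genes named from the pathway and marker lists were picked after their values were seen. The members and all lists were chosen with earlier results of these data known. The number of arrays limits the precision. Sequences are from the deposited probe column (rn4) and RefSeq (GRCr8). Figures were drawn with matplotlib 3.10.9 (Python 3.11.15, pandas 2.3.3).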

Additional observations from a re-analysis of the deposited data

Results flagged for a closer look

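Of the 36 named and tested probes, each checked in both groups (72 groups of 6 arrays), 4 groups held an array whose gap to its nearest neighbour took up more of the group's range than the critical value of Dixon's outlier test allows. About 5% of groups do so by chance, and 4 of 72 is close to that share. All 4 were the highest of their group and belonged to culture 2. They came from the Col18a1 and Lamc1 probes alone, each counted in control and in ACE of the same culture, so that they are not 4 separate observations. Col18a1 was at 12.01 in control replicate 2, with the other controls at 10.88 to 11.30, and at 12.10 in ACE replicate 2, with the others at 11.09 to 11.35. Lamc1 was at 13.29 in control replicate 2, with the other controls at 12.70 to 12.75, and at 13.37 in ACE replicate 2, with the others at 12.65 to 12.87. The other Lamc1 probe did not share this, with its highest mean, 8.46, in culture 1 against 8.16 in culture 2.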

How the results depend on the processing

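No matrix probe passed the adjusted threshold under any of the 8 other settings or without any replicate (0 each). The count at an unadjusted p under 0.05, 8 in the report, was 9 or 10 under other scaling, background, filter and source settings (12.5% to 18.6% of all probes), where 68 to 99 matrix probes were tested. Without the replicate block it was 0 (0.34% of all probes), with replicate as a random block 13 (16.8%), and in the scan batch of 3 pairs 14 (14%). Without single replicates it ran from 4 to 12 (11.8% to 17.5%). The exact signed-rank count of 3 became 5 with the normal approximation (19.3%) and 0 with a rank-sum test that ignores the pairing (no replicate block, 0.513%). It could not be run without a replicate, since 5 pairs cannot go under 0.05. The culture F count of 64 was 60 to 75 (70.9% to 90.4% of all probes), and 50 to 65 without single replicates (70.3% to 84.4%). The median difference of the matrix probes lay between -0.07 and -0.004, and between -0.038 and 0.032 without single replicates. The medians per pair and the 35 probes highest in culture 2 (34 to 36) were recomputed under settings chosen after seeing the data and kept their signs.

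Named differences near 0 changed sign, none of them past the threshold. In the scan batch of 3 pairs this held for Col18a1 (-0.073), Col1a1 (-0.050), Col6a1 (-0.055), Fbn2 (0.014), Fn1 (-0.021), Lama2 (-0.068), Lama4 (-0.027), Lamb1 (-0.0019), Lum (0.0027) and Postn (0.24). With the deposited values it held for Col3a1 (0.0043), Fbn1 (0.010) and Fbn2 (0.0062), with 75th percentile scaling for Fbln1 (-0.014), Lama2 (-0.072) and Lama4 (-0.0093), and with normexp for Fbln1 (-0.0013), Lama2 (-0.0025) and Fbn2 (0.0049). Without single replicates, the range crossed 0 for Col1a2 (-0.014 to 0.10), Col3a1 (-0.085 to 0.11), Col6a1 (-0.013 to 0.097), Col8a1 (-0.094 to 0.064), Fbln1 (-0.018 to 0.075), Fbln2 (-0.14 to 0.044), Fbn1 (-0.051 to 0.073), Fbn2 (-0.11 to 0.055), Fmod (-0.14 to 0.0041), Lama2 (-0.038 to 0.032), Lama4 (-0.019 to 0.050), Lum (-0.26 to 0.15) and Postn (-0.29 to 0.099). The cause was not tested. Dcn and Lum were well above background on 10 of 12 arrays, which limits how precisely they were measured.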
